A study of Caenorhabditis elegans with 6 samples.

Results

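The core histone gene clusters of Caenorhabditis elegans were examined as 60 listed genes of a table of 46659 rows, chosen by their sequence names as the H2A, H2B, H3 and H4 genes of 14 clusters, where a cluster is the part of the sequence name before the dot. RNA depleted of ribosomal RNA was sequenced from embryos of 2 genotypes, with 3 samples each that the labels call biological replicates. The controls were ced-3(n1286) single mutants, and the other group was dot-1.1(knu339); ced-3(n1286) double mutants, so the ced-3 mutation is shared by every sample. Worms were kept at 20 °C with E. coli OP50 as food, and hypochlorite treatment of synchronized adults yielded the eggs, so each sample is a pool of embryos for which no stage is given. The sources used here do not give the lesions of the knu339 and n1286 alleles.

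A nucleosome is built from pairs of the core histones H2A, H2B, H3 and H4, around which DNA is wrapped. Animals make most of this histone during DNA replication from many near-identical genes that lie in clusters, and the resulting messages usually end in a stem-loop bound by the stem-loop binding protein, which is CDL-1 in the worm. The early embryo divides quickly and needs histone for each round of replication. DOT-1.1 belongs to the DOT1 family of methyltransferases, which modify a lysine in the globular part of histone H3, and CED-3 is the caspase of programmed cell death. The comparison of the genotypes therefore asks whether messages for the protein that DOT-1.1 modifies, and for its partners in the nucleosome, differ in level.

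Library totals ran from 66316445 to 77957224 counts. Transcripts of dot-1.1 itself were at 34.9 to 67.0 CPM (counts relative to the library total, scaled by TMM factors) in the single mutants and at 28.6 to 62.7 CPM in the libraries labelled double mutant, ranges that overlap, so the level of this transcript does not check the labels. All values of the clusters below carry the direction of the labels alone. Marker lists for cell types and stages also differed in level. The summed level of 5 pharynx genes was 340 to 495 CPM in the single mutants and 746 to 1439 CPM in the double mutants. For 8 body wall muscle genes it was 3088 to 4248 against 3950 to 7247 CPM, and for 6 neuronal genes 338 to 380.1 against 383 to 441 CPM. The pharynx and neuron sums did not overlap between the genotypes, the neuron sums by a narrow margin. All 5 pharynx genes were above a log2 fold change of 0, as were 7 muscle genes with 1 below and 5 neuronal genes with 1 below. Only 3 neuronal genes were higher in all 3 replicate numbers. The 5 cuticle genes summed to 723 to 1075 against 774 to 928 CPM. Of 11 early zygotic genes, 10 were found in the table, with sums of 207 to 491 against 159 to 359 CPM and all 8 tested members below a log2 fold change of 0. Of 10 maternal and germ line genes, all were below 0, with sums of 448 to 687 against 354 to 706 CPM. Transcripts of 7 adult genes were near 0, with sums of 1.34 to 2.27 against 3.66 to 4.16 CPM. With the replicate number as a block, edgeR called 4 muscle, 4 pharynx and 2 neuronal genes higher, and 1 early zygotic and 1 maternal gene lower, where it called 446 of all 17365 genes higher and 251 lower. The part of these markers in the histone values was not tested, and in pooled embryos fewer replicating cells and less histone message per cell cannot be told apart.

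The coding lengths of the annotation gave a type to 58 of the 60 genes, 15 each for H2A and H2B and 14 each for H3 and H4. Of the remaining genes, his-39 (F45F2.2) has a coding part of 204 bp, shorter than that of any of the 4 types. The other, C50F4.6, has no histone name in the annotation and a coding part of 279 bp, so it goes against the label of the group. Its exons overlap those of the H2B gene his-41 on the same strand. It is kept in the counts because the list names it, and values without it are given where it matters.

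The clusters fall into 8 loci when neighbours under 100 kb apart are joined. On chromosome II, ZK131 and F08G2 lie together with 13 genes (13817760 to 13828697, WBcel235). Chromosome IV holds F55G1 (7485834 to 7488659), F35H10 with F17E9 (8331044 to 8336340) and a locus of 83.4 kb with B0035, F54E12, H02I12 and F22B3 (11324056 to 11407427). Chromosome V holds F45F2 (8532715 to 8536716), F07B7 with K06C4 (8847393 to 8898539) and C50F4 (9544659 to 9547607), and the X chromosome holds K03A1 (7309564 to 7310520). The typical unit is a head-to-head pair, either an H2A gene with an H2B gene or an H3 gene with an H4 gene. The annotated gene models of a pair start 227 to 327 bp apart. There are 15 pairs of the first kind and 13 of the second.

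Core histone messages took up a large share of the libraries. In single mutant libraries 1 to 3 the 60 rows held 7.22%, 6.79% and 6.70% of all counts, and in double mutant libraries 1 to 3 they held 6.24%, 6.21% and 5.62%, and no double mutant library reached the lowest single mutant. The means were 6.90 ± 0.28% and 6.02 ± 0.34% (SD, n = 3 each). These shares are of the library total, of which the mitochondrial ribosomal RNA row MTCE.7 alone took 4.78% to 7.24% in the single mutants and 2.83% to 4.22% in the double mutants. CPM values below are scaled by TMM.

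Levels per length were compared as CPM per kb of annotated exon over all 6 libraries (RPKM). For 55 of the 60 genes the annotation holds the coding part only, so these levels include any reads from untranslated ends that the authors assigned to the gene. H4 genes were the highest, with a median of 4818 RPKM, followed by H2A at 3108, H3 at 2508 and H2B at 1751 RPKM. The most abundant message per length was that of the H4 gene his-60 (F55G1.11) at 11064 RPKM, followed by the H4 genes his-56 at 10551 and his-46 at 9583 RPKM. Within each type the copies spanned a wide range of levels, from 187 to 5715 RPKM in H2A, 84.6 to 3622 in H2B, 92.4 to 3860 in H3 and 198 to 11064 in H4.

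The low end was made up mainly of 1 cluster. The genes of C50F4 were all under 200 RPKM, with his-41 (H2B) at 84.6, C50F4.6 at 93.3, his-35 (H2A) at 187 and his-37 (H4) at 198 RPKM. The gene models of his-35, his-37 and his-41 differ from the usual single-exon model by having 2 exons and annotated ends outside the coding part. Outside this cluster, the H3 gene his-42 of F08G2 was at 92.4 RPKM and the short gene his-39 at 3.28 RPKM.

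**Figure D1:**
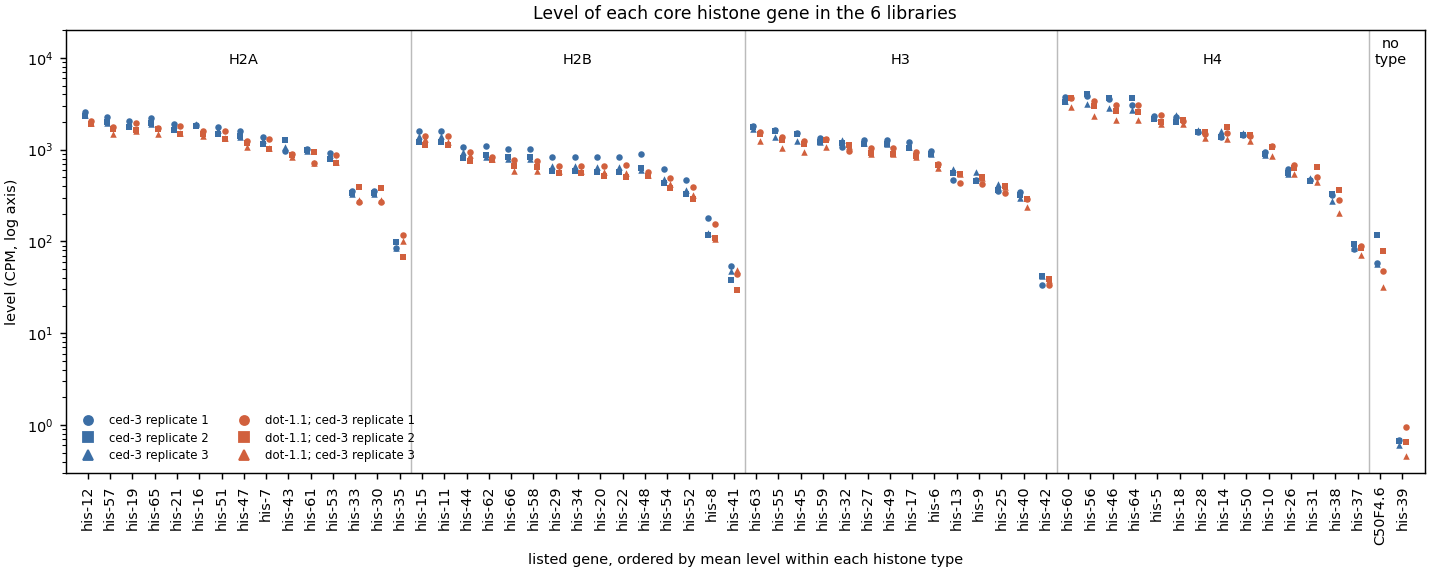
Level of each of the 60 listed genes in CPM on a log axis, with 1 point per library, blue for ced-3 and orange for dot-1.1; ced-3 embryos and the marker shape giving the replicate number. The C50F4 genes, his-42 and his-39 lie far below the other genes.

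Several copies had almost the same counts in the deposited table. In 6 pairs of genes the counts differed by less than 5% in each of the 6 libraries, a limit chosen after the values were seen. These pairs were his-34 with his-29 and his-58 with his-66 (H2B), his-33 with his-30 and his-57 with his-65 (H2A), his-49 with his-27 (H3), and his-20 with his-22 (H2B). For his-34 of F17E9 and his-29 of F35H10 the largest difference in any library was 0.57%, with 56467 and 56774 counts in single mutant replicate 1. Of 392 pairs of the same type, 1.53% matched in this way, and of 1378 other pairs none did, so a match was seen only between genes of the same type. The sources used here do not give how the authors treated reads that fit several copies, nor whether counting used the strand of these strand-specific libraries. Exons of his-57, his-16, his-8, his-37, his-54 and his-20 overlap another gene on the opposite strand, so reads of the overlapping gene could enter their counts. Matching copies are therefore not independent measurements, and sums over copies may hold the same reads more than once.

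The double mutants had lower levels of most core histone messages, by a small amount. The log2 fold change of the double over the single mutants was below 0 for 54 of the 60 genes, against 52.1% of all 17365 genes tested, and the median was -0.19, a level lower by 12.5%, against -0.02 over all genes. All 60 genes passed the filter on low counts. In each replicate number the double mutant was compared with the single mutant of the same number, and 41 of the 60 genes were lower in all 3 comparisons, against 25.3% of all genes. In 18 genes every double mutant library was below every single mutant library, against 7.91% of all genes. In 0 genes every double mutant library was above, against 10.6% of all genes. Near-identical copies may share reads, so these counts hold fewer independent measurements than genes.

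No single gene passed edgeR's test without a block. EdgeR's quasi-likelihood test on genotype alone called 0 of the 60 genes at an adjusted p under 0.05, where it called 0.0806% of all genes, and the lowest adjusted p was 0.222, for his-6. At an unadjusted p under 0.05 there were 15 genes, all lower. At this limit 12.1% of all genes were found in either direction, and 782 of the 17365 genes tested were lower. DESeq2 called 1 gene, his-6, as lower (adjusted p = 0.0416), against 2.46% of all genes called and 0.469% called lower. With the replicate number as a block, edgeR called 4 genes, all lower, against 4.01% of all genes called and 1.45% called lower. At an unadjusted p under 0.05 with the block 28 genes were lower and 0 higher, against 12.9% of all genes that were lower. The count of 4 at an adjusted p under 0.05 rested on the choice of libraries, since with the block it was 0 without replicate 1 (0.0625% of all genes called), 23 without replicate 2 (14.2%) and 0 without replicate 3 (1.03%). Of the 23 genes, 22 were lower, against 6.39% of all genes, and 1 was higher, against 7.81% of all genes. The higher gene was the H2A gene his-35 (log2 fold change 0.34, adjusted p = 0.0155, edgeR), named here after its values were seen. Its log2 ratios in replicates 1 to 3 were 0.46, -0.55 and 0.23, so the replicate left out went the other way. With all libraries and no block it was at 0.08 (adjusted p = 0.877, edgeR). DESeq2 with the block called 20 genes, all lower, against 12.5% of all genes called and 6.32% called lower.

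The H3 gene his-6 (F45F2.13, chromosome V, 8534567 to 8534977) had the lowest p. Its level was 963, 888 and 899.9 CPM in the single mutants and 701, 673 and 631 CPM in the double mutants. Every double mutant library was below every single mutant library. The log2 fold change was -0.46 ± 0.12 SE without the block (adjusted p = 0.222, edgeR) and -0.46 ± 0.086 SE with it (adjusted p = 0.0351, edgeR). Its head-to-head partner his-5, an H4 gene 236 bp away and the most abundant message of the cluster per length, was at 2334, 2143 and 2289.5 CPM against 2367, 2017 and 1905 CPM, with overlapping groups. The other genes of the cluster were the H2A gene his-7, at a log2 fold change of -0.19, the H2B gene his-8, at -0.20, and his-39, at 0.07.

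The H2B genes his-58 (F54E12.4, chromosome IV, 11339735 to 11340106) and his-66 (H02I12.6, chromosome IV, 11400415 to 11400786) also fell with the block. The level of his-58 was 1006, 826 and 784 CPM in the single mutants and 752, 654 and 579 CPM in the double mutants. For his-66 it was 1021, 831 and 797 CPM against 767, 663 and 588 CPM. In either gene all double mutant libraries were below all single mutants, and the counts of the genes differed from each other by at most 1.98% in any library, so they cannot be taken as separate calls. With the block, his-58 had a log2 fold change of -0.40 ± 0.085 SE (adjusted p = 0.0458, edgeR) and his-66 one of -0.39 ± 0.086 SE (adjusted p = 0.0476, edgeR). The fourth call was C50F4.6, at 58.8, 117 and 56.5 CPM against 47.8, 78.7 and 31.9 CPM (-0.56 ± 0.11 SE, adjusted p = 0.0385, edgeR with the block). Its groups overlapped, and replicate 2 was the highest library of either genotype. Without this row, 3 of 59 genes were called with the block. When genes of the same type in the same cluster were summed to 1 row each before the fit, 2 of 48 rows were called with the block, both lower, against 1.15% of all rows called lower. These rows were his-6 and C50F4.6 themselves, and 0 were called without the block, against 0.121% of all rows. Of the matching pairs only his-20 with his-22 lies within 1 cluster, so this sum did not join his-58 with his-66. Their rows kept the same counts, at adjusted p = 0.0566 and 0.0591 (edgeR with the block). The fewer calls therefore do not measure the part of shared reads.

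**Figure D2:**
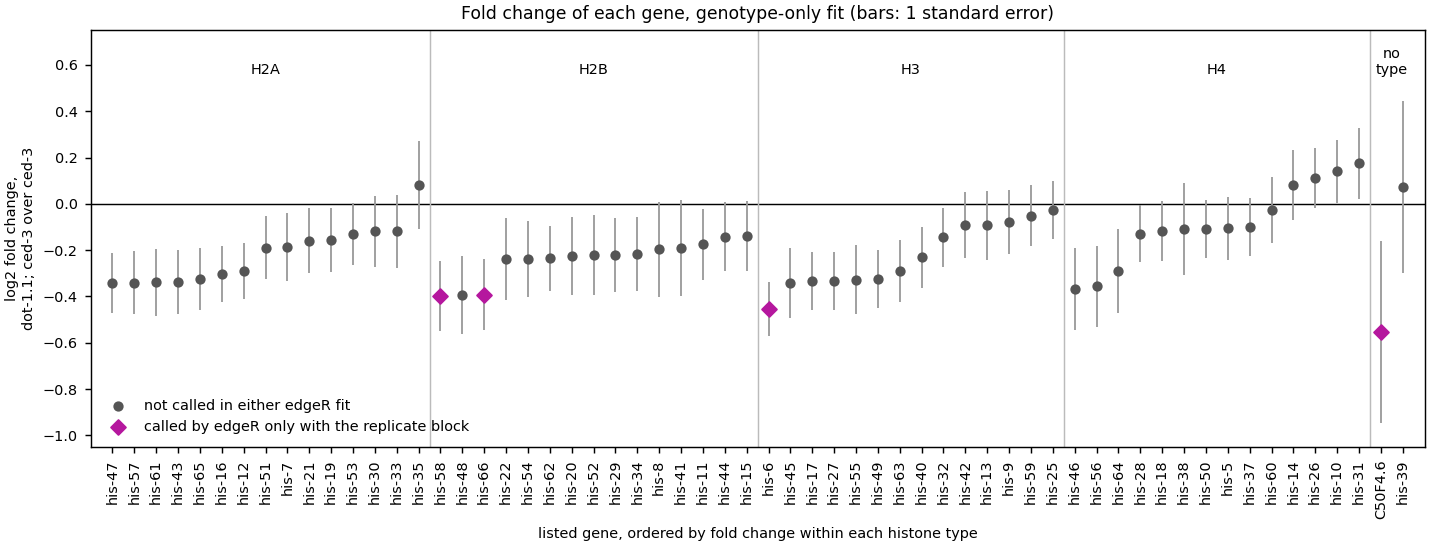
Log2 fold change of each gene, dot-1.1; ced-3 over ced-3, from the edgeR fit without the block, with bars of 1 standard error and genes ordered within each histone type. Points lie below 0 for 54 of the 60 genes, and purple diamonds mark the 4 genes that edgeR called with the block and not without it.

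By histone type, all 15 H2B genes and all 14 H3 genes were below 0, as were 14 of the 15 H2A genes and 10 of the 14 H4 genes, against 52.1% of all genes. The median log2 fold change was -0.26 for H3, the protein that carries the lysine methylated by DOT-1.1, -0.22 for H2B, -0.19 for H2A and -0.11 for H4. In 12 H2A, 14 H2B and 11 H3 genes the double mutant was lower in all 3 replicate numbers, and in 3 H4 genes, against 25.3% of all genes. Every double mutant library was below every single mutant library in 7 H2A, 4 H2B, 6 H3 genes and 1 H4 gene, against 7.91% of all genes. For H4 neither of these counts was above the share over all genes. Differences between the types were not tested.

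Sums over the genes of a type show which libraries carried the difference, although reads shared by matching copies may enter these sums more than once. The summed level of H3 genes was 13759, 13237 and 13000.4 CPM in the single mutants and 11729, 11395 and 10367 CPM in the double mutants, and the groups did not overlap. For H2A it was 21318, 19416 and 19882 CPM against 18215, 16772 and 15888 CPM, also without overlap. H2B sums were 12923, 9609 and 10441 CPM against 10413, 8542 and 9034 CPM, and here double mutant replicate 1 lay above single mutant replicate 2. H4 sums were 25611, 25548 and 23869 CPM against 24708, 23557 and 19204 CPM, with overlap through double mutant replicate 1. The double over single ratio of the means was 0.837 for H3, 0.839 for H2A, 0.849 for H2B and 0.899 for H4.

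**Figure D3:**
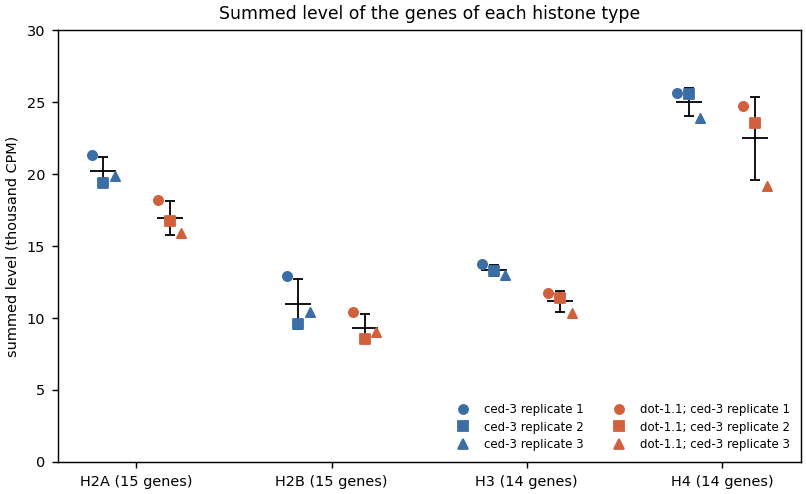
Summed level of the genes of each histone type in CPM divided by 1000, with 1 point per library and black marks for the mean and SD of 3 libraries. The double mutants lie below the single mutants without overlap in H2A and H3, while the groups overlap in H2B and H4.

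The 4 H4 genes above 0 were his-10, his-14 and his-26 of ZK131 and his-31 of F17E9. His-31 was at 462, 461 and 493 CPM in the single mutants and 508, 647 and 444 CPM in the double mutants (log2 fold change 0.17 ± 0.15 SE, adjusted p = 0.654, edgeR). For his-10 the levels were 948, 897 and 869 CPM against 1086, 1059 and 848 CPM (0.14 ± 0.14 SE), and for his-26 609.5, 559 and 544 CPM against 674, 636 and 539.5 CPM (0.11 ± 0.13 SE). In these genes replicates 1 and 2 were higher in the double mutant and replicate 3 was lower, and no gene was separated or called. Among the H2A, H2B and H3 genes only his-35 of C50F4 had a fold change above 0, at 0.08 ± 0.19 SE.

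The counts of each cluster were summed and fitted with all other genes in place of the single rows. All 14 cluster sums were below 0, against 52.1% of all genes, and 9 were lower in the double mutant in all 3 replicate numbers, against 25.3%. The sums are not all independent. Both genes of H02I12 match genes of F54E12 in their counts, and both genes of F35H10 match genes of F17E9. None was called in edgeR, neither without the block (lowest adjusted p = 0.431, with 0.121% of all rows called) nor with it (lowest adjusted p = 0.0867, with 3.86% of all rows called). At an unadjusted p under 0.05 there were 0 clusters without the block, against 4.09% of all rows lower at this limit, and 4 with it, against 11.6%. DESeq2 called 0 clusters without the block (2.32% of all rows called) and 3 with it (6.19% called lower), which were B0035, F54E12 and H02I12. EdgeR with the block called these 3 clusters when replicate 2 was left out (6.07% called lower). Because of the matching copies, F54E12 and H02I12 cannot be taken as separate calls in either fit.

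The lowest cluster values came from the 83.4 kb locus on chromosome IV. Its sums had log2 fold changes of -0.34 ± 0.17 SE for B0035, -0.33 ± 0.17 for F54E12, -0.33 ± 0.15 for H02I12 and -0.27 ± 0.17 for F22B3 without the block. All 12 genes of the locus lay between -0.40 and -0.29. Of these, 11 were lower in all 3 replicate numbers (25.3% of all genes), and 7 had separate groups below the single mutants (7.91% of all genes). The counts of his-65 and his-66 match those of his-57 and his-58, so H02I12 may repeat reads of F54E12, and the 12 genes are not independent measurements. The F54E12 sum was 8765, 8509 and 7265 CPM in the single mutants and 7248, 6596 and 5400.2 CPM in the double mutants, and for H02I12 it was 3249.7, 2804 and 2709 against 2495, 2338 and 2066 CPM. In these sums the groups were separate, for F54E12 only by a narrow margin between single mutant replicate 3 and double mutant replicate 1. The B0035 sum, at 7611, 7208 and 6079 against 6149, 5502 and 4638 CPM, overlapped by double mutant replicate 1, which was above single mutant replicate 3.

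The most abundant gene per length was an H4 gene in 3 of these 4 clusters. His-56 of F54E12 was at 3839, 4067 and 3179 CPM against 3371, 2991 and 2303 CPM, and his-46 of B0035 at 3566, 3677 and 2863 CPM against 3084, 2653 and 2097 CPM. In either gene double mutant replicate 1 was above single mutant replicate 3, so the groups overlapped, with log2 fold changes of -0.36 ± 0.18 SE and -0.37 ± 0.18 SE. His-64 of F22B3 was at 3084, 3672 and 2728 CPM against 3093, 2578 and 2083 CPM, level in replicate 1 and lower in the others. The H2A gene his-65 led H02I12, at 2229, 1973 and 1912 CPM against 1728, 1675 and 1478 CPM with separate groups (-0.33 ± 0.13 SE, adjusted p = 0.389, edgeR). Exons of his-57, whose counts match those of his-65, overlap T01G1.1 on the other strand.

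On chromosome V, F07B7 and K06C4, within 51.1 kb, had 14 of 14 genes below 0 and cluster values of -0.17 ± 0.16 SE each. Their H3 genes his-17, his-27 and his-49 were at -0.33 each with separate groups, but his-27 and his-49 match in counts and are not separate measurements. The other 11 genes lay between -0.24 and -0.11. Among them the H4 gene his-28 also had separate groups, its lowest single mutant at 1552 CPM and its highest double mutant at 1545 CPM. In all, 4 of the 14 genes had separate groups, against 7.91% of all genes. The leading H4 gene of K06C4, his-18, was at 2276, 1978 and 2359.8 CPM against 2073, 2117 and 1912 CPM, and that of F07B7, his-50, at 1427, 1438 and 1533 CPM against 1393, 1445 and 1241 CPM. In both of these H4 genes replicate 2 was higher in the double mutant and the groups overlapped. F45F2, the cluster of his-6, had a value of -0.18 ± 0.16 SE. C50F4 was at -0.14 ± 0.14 SE, and its leading gene, the H4 gene his-37, at 83.5, 94.0 and 85.8 CPM against 90.0, 84.2 and 71.4 CPM, had overlapping groups.

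The remaining clusters lie on chromosomes II, IV and X. In ZK131 (-0.10 ± 0.15 SE) and F55G1 (-0.09 ± 0.16 SE) the 3 H2A genes were at -0.34 to -0.29, while the H3 and H4 genes were at -0.09 to 0.14. The H2A gene his-12, the leading gene of ZK131, was at 2540.4, 2343 and 2359 CPM against 2054, 1904 and 1967 CPM with separate groups (-0.29 ± 0.12 SE). The H2A gene his-43 of F08G2 was at 956, 1265 and 1063 CPM against 893, 876 and 828 CPM, also separate (-0.34 ± 0.14 SE), and the cluster was at -0.22 ± 0.14 SE with separate groups. His-60 of F55G1, the most abundant H4 gene, was at 3741, 3297 and 3413 CPM against 3686, 3650.4 and 2926 CPM (-0.03 ± 0.14 SE), with overlapping groups.

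F17E9 (-0.08 ± 0.14 SE) had genes from -0.22 to 0.17. Its leading gene, the H3 gene his-32, was at 1078, 1196 and 1261 CPM against 976, 1122 and 1099 CPM, lower in each replicate number but with overlapping groups (-0.14 ± 0.13 SE). For the H2B gene his-29 of F35H10 the levels were 842, 579 and 672 CPM against 661, 556 and 580.4 CPM (-0.22 ± 0.16 SE), and for the X-linked H4 gene his-38 of K03A1 321, 327 and 276 CPM against 285, 366 and 205 CPM (-0.11 ± 0.20 SE). Replicate 2 of his-38 was higher in the double mutant, and the other replicates were lower.

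**Figure D4:**
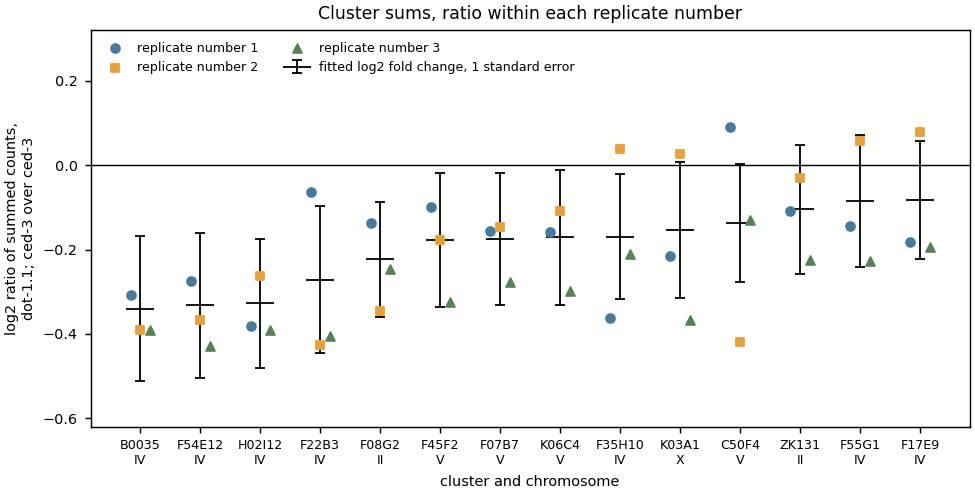
Log2 ratio of the summed counts of each cluster, dot-1.1; ced-3 over ced-3, with 1 point for each replicate number and black marks for the fitted log2 fold change and its standard error, ordered by the fitted value. The 4 clusters of the 83.4 kb locus on chromosome IV are the lowest, and the points above 0 belong to replicate 2 in 4 clusters and to replicate 1 in C50F4.

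The difference was present in each replicate number, to an unequal extent. In replicate 1, 51 genes were lower and 9 higher in the double mutant, with a median log2 ratio of -0.19. In replicate 2 the numbers were 47 and 13 with a median of -0.15, and in replicate 3 they were 58 and 2 with a median of -0.27. The median over all tested genes was -0.02, -0.02 and -0.00042 in the same order.

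Fold changes were also set side by side for genes that face each other across a short interval. In the H3 and H4 pairs the H3 gene had the lower fold change in 10 of 13 pairs, by up to 0.35 for his-6 against his-5, with a median absolute difference of 0.18. The 3 exceptions, his-45 with his-46, his-55 with his-56 and his-63 with his-64, lie in the 83.4 kb locus and differed by 0.03 or less. In the H2A and H2B pairs the H2A gene was the lower partner in 4 of 15, all of them in ZK131, F08G2 and F55G1. Pairs whose counts match those of other pairs may repeat the same reads, and no difference between partners was tested.

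**Figure D5:**
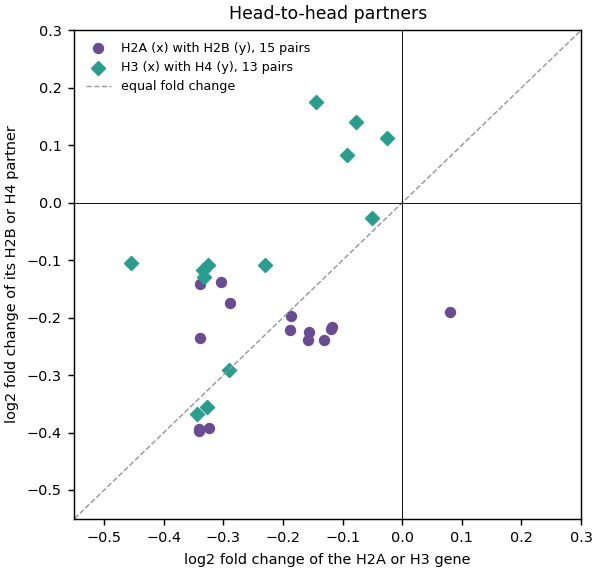
Log2 fold change of each H2A or H3 gene (x axis) against that of its head-to-head H2B or H4 partner (y axis), with a dashed line of equal fold change. Most H3 and H4 pairs lie above the line, the H3 gene being lower, while those of the 83.4 kb locus lie close to it.

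Core histone genes that the list leaves out were also below 0. The genes his-1 to his-4 of cluster T10C6 and his-67 and his-68 of T23D8 had log2 fold changes between -0.31 and -0.08, against 52.1% of all genes below 0. In either edgeR fit 0 of these 6 genes passed. Over all genes 0.0806% were called without the block and 4.01% with it, so 0 calls among few genes lie near these shares. Among 7 genes for replacement variants, which are made outside replication, 5 were tested and all 5 were below 0, with a median of -0.20. Either edgeR fit made 0 calls among them, against the same shares over all genes. His-69 and his-70 were too low to be tested.

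Genes for making, carrying and placing histones, together with genes of DNA replication and S phase, were examined as a list of 34. None was called in edgeR without or with the block, where 0.0806% and 4.01% of all genes were called. Of the 34 genes, 31 were below 0 (52.1% of all genes) with a median of -0.15, and 18 were lower in all 3 replicate numbers (25.3% of all genes). Their summed level was 7693, 8333 and 6796 CPM against 6966, 8475 and 6126 CPM, with overlapping groups. DESeq2 called 0 without the block, against 2.46% of all genes called. With the block it called 3, a smaller share than the 12.5% of all genes called in that fit. These were the retinoblastoma binding protein gene rba-1 and the phosphatase gene cdc-25.1 as lower and the acetyltransferase gene cbp-1 as higher. Without replicate 2, edgeR with the block called 10 members, all lower, where 14.2% of all genes were called and 6.39% were called lower.

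The stem-loop binding protein gene cdl-1 was at 368, 377 and 314 CPM in the single mutants and 314, 415 and 285 CPM in the double mutants (log2 fold change -0.06 ± 0.16 SE, adjusted p = 0.888, edgeR). Its groups overlapped, with the highest level of all in double mutant replicate 2. Levels of rba-1, which codes for a histone-binding chaperone subunit, were 102, 111 and 86.7 CPM against 72.9, 88.1 and 72.1 CPM, with overlap in 1 library (-0.36 ± 0.14 SE, adjusted p = 0.365, edgeR). The acetyltransferase gene cbp-1 was at 851, 608 and 782 CPM against 918, 888 and 969 CPM (0.31 ± 0.15 SE, adjusted p = 0.443, edgeR). All its double mutants were higher than all single mutants, which held for 10.6% of all genes. Lin-35, the worm retinoblastoma gene, was at 207, 191 and 186 CPM against 169, 180.3 and 141 CPM, with separate groups (-0.25 ± 0.13 SE, adjusted p = 0.459, edgeR). Of the 34 supply genes only this 1 had all double mutants below all single mutants, against 7.91% of all genes.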

How the data were processed

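The authors deposited raw counts of reads per gene for the 6 libraries, and each column was matched to its sample by the labels. The submitters' processing notes name HISAT2 2.0.5, StringTie and the build WBcel235. The counting program and how it handled strand and multi-mapped reads are not given in these sources. Names, positions and lengths came from the Ensembl annotation of WBcel235 and RefSeq symbols, and 60 of 60 listed genes matched by sequence name.

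Differences were fitted with edgeR 4.0.16 under R 4.3.3 (filterByExpr, TMM, robust quasi-likelihood test, no term beside genotype). Two-sided p-values were adjusted over the 17365 genes tested by the Benjamini-Hochberg method, and calls were made under 0.05. The standard error (SE) is the log2 fold change divided by the square root of the F statistic. DESeq2 1.42.0, other scaling, no filter, a replicate block and left-out libraries were alternatives. The script was tested on simulated data. A count of 0 allows up to 3 counts, 0.0385 to 0.0452 CPM, for counting error only.

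Deviations from the genotype means correlated at 0.20, 0.17 and 0.32 between libraries of the same replicate number and at -0.24 to 0.059 otherwise. Deviations within a genotype sum to 0, so the values at unequal numbers are not independent of those at equal numbers. Since each of the 3 was over 0.1 a second fit treats equal numbers as pairs. The numbering comes from the labels, which name no shared day or culture. Replicates differed by more than sampling noise (chi-square per degree of freedom 98.0 to 190.3). The labels do not say whether samples came from separate cultures, so p-values measure the spread between these samples. The members and lists were chosen with earlier results of these data known. Genes named with all their values were those called by edgeR in either fit, the most abundant gene per length of each cluster, the 3 largest fold changes in each direction at a mean of 10 CPM or more, and, of the 34 supply genes, cdl-1, those called and the 3 with the lowest p.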

Additional observations from a re-analysis of the deposited data

How the results depend on the processing

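No core histone gene was called in edgeR without the block under DESeq2's size factors, library totals or no filter on low counts, or without any single library. With the replicate block 4 genes were called, 3 without C50F4.6 and 2 rows when copies of a type within a cluster were summed. That sum does not join matching copies of different clusters, such as his-58 and his-66. These alternatives were chosen after seeing the data, as was counting the genes below 0 under each setting. DESeq2 called 1 gene without and 20 with the block. Leaving out libraries or replicate numbers gave 0 to 23 genes, 0 to 3 clusters and 0 to 10 supply genes. DESeq2 with the block called 3 clusters and 3 supply genes, and edgeR with the block called 0 of either. The 3 clusters include F54E12 and H02I12, which are not separate calls because their copies match in counts. The median log2 fold change of the 60 genes ranged from -0.29 to -0.11 when libraries were left out, and was -0.19 with DESeq2's size factors and -0.17 with library totals. The number of genes below 0 was 54 under the other scalings, no filter, the block and DESeq2, and 47 to 56 when libraries were left out. Of the core histone genes named with all their values, those that changed sign did so only when libraries were left out (the supply genes were recomputed as counts of calls, not gene by gene): his-37 ranged from -0.22 to 0.0018 (0.00043 with the block without replicate 3), his-50 from -0.17 to 0.012, his-60 from -0.12 to 0.088 (-0.096 to 0.085 without the block), his-38 from -0.30 to 0.089 (0.021 with the block without replicate 3), his-18 from -0.22 to 0.0069 and his-31 from -0.0086 to 0.34. The causes of these changes were not tested. Depth is no limit for these genes, apart from his-39 at 36 to 60 counts, while 3 libraries per genotype are few for differences of this size.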
